A study of Mus musculus with 6 samples.

Results

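The genes described here are 43 genes of the lysosome, chosen by symbol: each is a row of the deposited gene table whose symbol equals a member of a list of lysosomal hydrolases, lysosomal membrane proteins, proton pump subunits and the transcription factors that act on them. All 43 of 43 symbols were found among the 55487 genes of the table, and all 43 passed the filter on low values (a mean of at least 1 normalized count over the 6 libraries), the lowest member mean being 555. RNA came from the aortas of bone marrow-transplanted mice, with the adventitia removed so that media and intima were left. The 3 e/e recipients were ChemR23e/eApoe-/- hosts of Apoe-/- marrow, and the 3 control recipients were Apoe-/- hosts of Apoe-/- marrow. Donor and host therefore lacked Apoe in both groups, and ChemR23 (gene Cmklr1), a G protein-coupled receptor for chemerin and resolvin E1, was per the labels lacking in the non-hematopoietic cells of the e/e recipients, while the marrow was labelled Apoe-/- alone. All mice were transplanted at 8 to 10 weeks of age, had 4 weeks of recovery, and then received a Western diet with 21% fat and 0.15 to 0.2% cholesterol for 6 weeks. The labels do not say how much host marrow remained, nor whether each library is a separate animal, so p-values measure the spread between these samples, which may in part be technical.

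The lysosome is the acidic compartment in which cells break down proteins, glycans, lipids and nucleic acids taken up from outside or delivered by autophagy. A proton pump, the V-ATPase, acidifies it, soluble hydrolases do the digestion, and a coat of glycosylated membrane proteins shields its limiting membrane. Transcription factors of the MiT/TFE family, Tfeb, Tfe3 and Mitf, bind a short DNA element in the promoters of many lysosomal genes. In atherosclerosis the compartment is best known from foam cells, where lysosomal acid lipase frees cholesterol from ingested lipoproteins, and from secreted cathepsins that cut elastin and collagen.

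The libraries held 30887855 to 38600604 recovered reads. Cmklr1 was not lower in the libraries labelled e/e, at 2388, 1788 and 1551 normalized counts against 1396, 1028 and 1720 in controls (log2 difference 0.47, limma adjusted p = 0.427), and no table here says which part of the gene the e allele alters. The mean that the deposited header names treated equals the mean of the 3 libraries labelled control, and its control mean that of the 3 libraries labelled e/e. Every direction below follows the labels of the samples, as e/e minus control, and turns round if the header is right. Ddx3y, a Y-linked gene, was at 8.54, 0 and 6374 in e/e recipients 1 to 3 and at 6058, 6796 and 6375 in the controls, so e/e recipients 1 and 2 lacked the Y-linked expression of the other libraries. Xist, the X-inactivation RNA, was at 16083, 13146 and 373 in the e/e recipients and at 13.8, 8.87 and 22.0 in the controls, so e/e recipient 3 was also above every control in it. Without e/e recipient 3, that pattern and the group cannot be told apart.

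Most of the 43 genes were higher in the e/e recipients, but none passed the threshold. The log2 difference was above 0 in 39 members, against 48.8% of all 20669 genes tested, and the member median was 0.21 against -0.006 for all genes. In 26 members every e/e recipient lay above every control recipient, a gap in that direction that 8.80% of all genes showed and 10.1% of genes with a mean of at least 100. No member had all e/e recipients below the controls, against 8.24% of all genes. By limma with Benjamini-Hochberg adjustment over all genes tested, 0 of 43 members were called at 0.05, against 28 genes or 0.135% of all, and the smallest member adjusted p was 0.105. At an unadjusted limma p under 0.05, 26 members were higher and 0 lower, against 6.36% and 5.79% of all genes, or 7.70% higher among genes with a mean of at least 100.

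**Figure D1:**
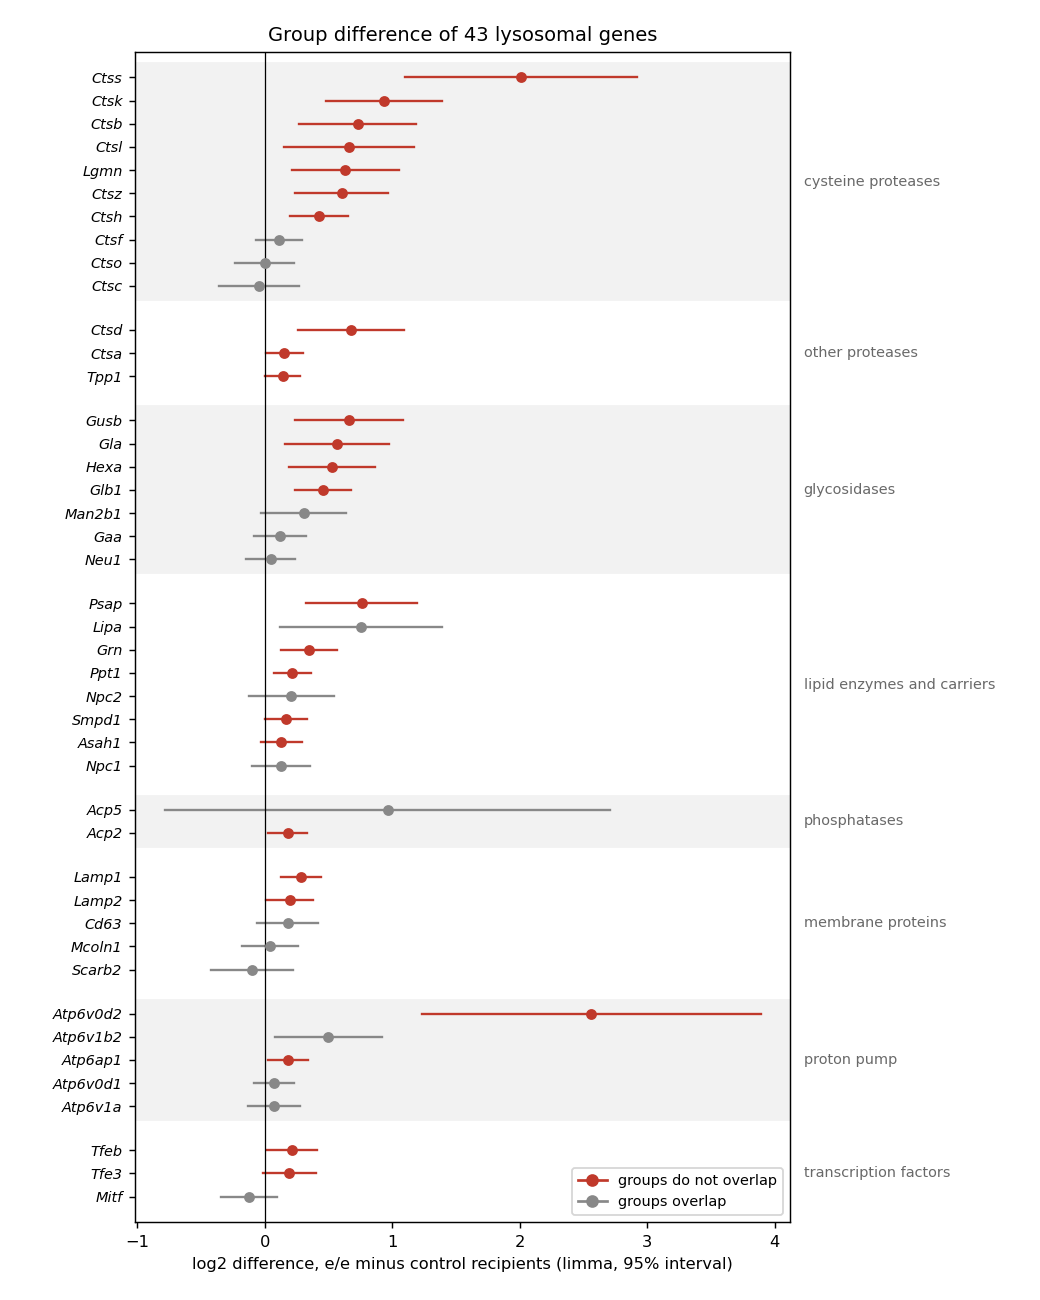
The log2 difference, e/e minus control recipients (3 libraries each), of the 43 lysosomal genes by role. Points are limma estimates, bars their 95% intervals without adjustment for the number of genes, and red marks the 26 genes whose groups do not overlap; Atp6v0d2 at 2.56 and Ctss at 2.01 lie farthest to the right.

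The e/e recipients were unequal among themselves. The 43 genes together took 1.17%, 1.23% and 0.846% of all normalized counts in e/e recipients 1, 2 and 3, against 0.795%, 0.786% and 0.769% in control recipients 1, 2 and 3. Relative to the control mean of each gene, the median member stood at 0.29, 0.31 and 0.13 on the log2 scale in the e/e recipients and at -0.01, 0.03 and -0.03 in the controls. All e/e libraries were thus above all controls in both measures, and e/e recipient 3 was the lowest of the 3. Recipients 1 and 2 were both above recipient 3 in 35 members, and recipient 3 was the lowest e/e library in 23 of the 26 members without overlap. In 12 members recipient 3 was at least 1.5 times below the mean of recipients 1 and 2. It still lay above all controls in 28 members, against 34 and 38 for recipients 1 and 2.

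**Figure D2:**
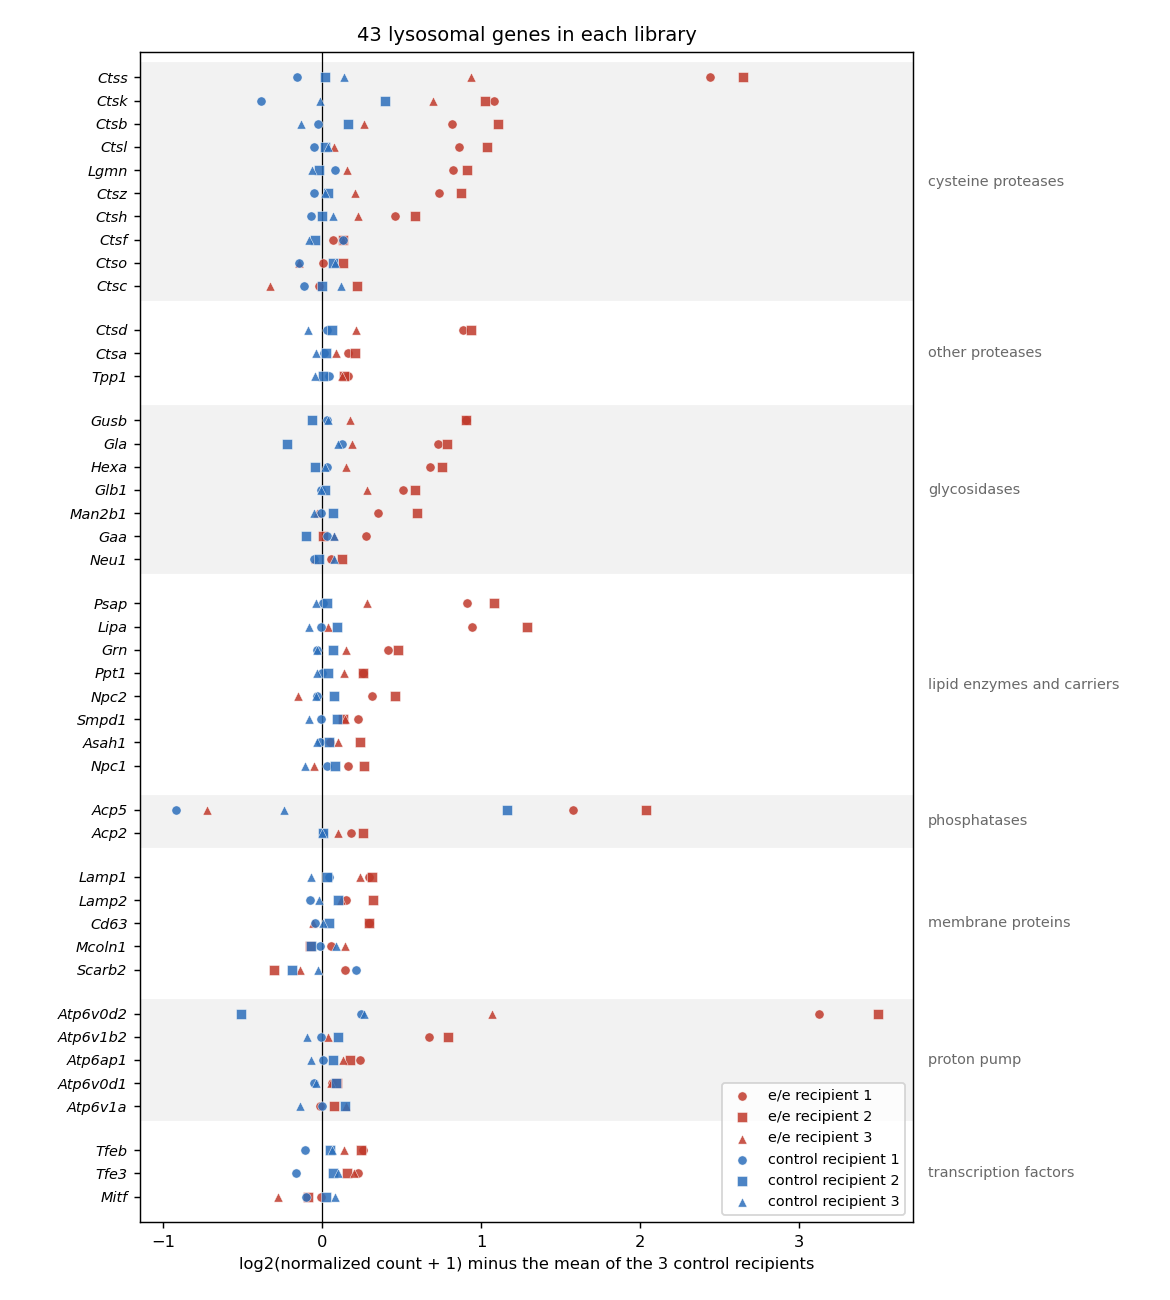
Each library's log2(normalized count + 1) minus the mean of the 3 control recipients, for the 43 lysosomal genes by role. Red points are e/e recipients and blue points controls, with a symbol for each replicate; e/e recipients 1 and 2 lie to the right of e/e recipient 3 in 35 genes.

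The summed macrophage markers followed this order, while single markers went both ways. The normalized counts of 26 macrophage markers summed to 57304, 73312 and 20063 in e/e recipients 1, 2 and 3, and to 16275, 23100 and 18748 in the controls, none of the markers being at 0 in any library. In e/e recipients 1 and 2 the sum was therefore above all controls. In e/e recipient 3 the sum was within their range, although single markers there lay above or below all controls. Lyz2 and Gpnmb made up 55.2%, 55.2% and 39.8% of the sum in the e/e recipients and 29.0%, 25.8% and 26.4% in the controls. Among the markers 19 of 26 were above 0, 10 were higher and 4 lower at an unadjusted limma p under 0.05, and 0 were called. Of the 10 higher ones 5 had groups without overlap, so that e/e recipient 3 was also above every control in them. They were Lgals3, Cd68, Gpnmb, Trem2 and Spi1, with log2 differences of 1.78, 2.11, 2.45, 2.17 and 1.17. The 4 lower ones were Cd163, Lyve1 and F13a1, known from resident macrophages, and Mertk, an efferocytosis receptor, with log2 differences of -2.88, -1.46, -1.03 and -0.21, Cd163 and Mertk without overlap. Of the defining markers Cd68 was at 1807, 2050 and 572 against 256, 321 and 317, and Adgre1 at 326, 505 and 182 against 161, 386 and 266. Their part in the member differences was not tested, and in bulk tissue fewer cells of a type and less RNA per cell cannot be told apart. Smooth muscle markers took 3.97 to 5.28% of counts in the e/e recipients and 4.23 to 4.47% in the controls. Of these 10 markers 8 were above 0, with 0 higher and 1 lower at an unadjusted limma p under 0.05. The lower one, Myocd, was at 3340, 3549 and 5543 against 8589, 6271 and 7031, without overlap (log2 difference -0.84). Erythroid genes took 0.00508 to 0.0323% against 0.280 to 0.875%, with no overlap. All 7 were lower at an unadjusted limma p under 0.05. Markers of other cells were also lower at an unadjusted limma p under 0.05, in 7 of 8 adipocyte, 6 of 8 platelet, 5 of 6 B cell and 4 of 7 neutrophil genes, with median log2 differences of -4.94, -2.42, -1.42 and -2.76. Limma called Hbb-bt, Ppbp and Cxcr2 lower, 1 gene each of the erythroid, platelet and neutrophil lists (each limma adjusted p = 0.045). Over all genes 0.0629% were called lower. Of 10 adventitial fibroblast markers 0 were higher and 3 lower. Among these Dcn was at 5978, 9097 and 6238 against 11216, 13342 and 15812.5, without overlap. Of 10 endothelial markers 1 was higher and 1 lower, and of 7 T cell markers 1 was higher and 1 lower. Adipoq, an adipocyte hormone gene, was at 13.3, 1711 and 1.01 against 575, 5082 and 1009.9, so adipocyte RNA was present in tissue labelled as media and intima. The part of these cells in the member differences was likewise not tested.

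Among the 10 cysteine proteases, 7 had groups without overlap and 7 had an unadjusted limma p under 0.05, all higher, and the median log2 difference was 0.62. Cathepsin S (Ctss), the elastin-cutting protease that trims invariant chain in antigen-presenting cells, was at 6217, 7191 and 2195 normalized counts in e/e recipients 1 to 3 and at 1027, 1161 and 1260.3 in controls 1 to 3. All e/e libraries were above all controls, but recipients 1 and 2 stood 5.83-fold over the control mean and recipient 3 1.91-fold. The difference was 2.01 log2 units (SE 0.39, limma adjusted p = 0.105). Without e/e recipient 3 it was 2.54 with a limma adjusted p of 0.000637, and between e/e recipient 3 and the controls it was 0.94.

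Cathepsin K (Ctsk), the collagen-cutting protease of osteoclasts, was at 797, 766 and 611 against 288, 495 and 373. Here e/e recipient 3 stayed close to the other two and the groups did not overlap. The log2 difference was 0.93 (SE 0.20, limma adjusted p = 0.12), and it was 0.70 between e/e recipient 3 and the controls.

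Cathepsin B (Ctsb), the most abundant member of the group and a lysosomal endopeptidase and dipeptidase, was at 52618, 64144 and 35731 against 29305, 33384 and 27133. Every e/e library was higher than every control, recipient 3 by the narrowest margin (log2 difference 0.73, SE 0.20, limma adjusted p = 0.208). Of the annotated exon bases of Ctsb, 12.8% are shared with Fdft1 on the other strand. Cathepsin H (Ctsh), an aminopeptidase, was at 10829, 11846 and 9224 against 7518, 7902 and 8286. Cathepsin Z (Ctsz), a carboxypeptidase, was at 5027, 5535 and 3485 against 2924, 3099 and 3056. In both genes the e/e recipients were above the controls with recipient 3 lowest, by 0.42 (SE 0.098, limma adjusted p = 0.154) and 0.60 (SE 0.16, limma adjusted p = 0.187) on the log2 scale.

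Legumain (Lgmn), the asparaginyl endopeptidase that processes cathepsins, differed by 0.63, and cathepsin L (Ctsl), an endopeptidase that also cuts elastin, by 0.66, both without overlap. In Ctsl e/e recipient 3, at 12010.4, lay just over the highest control, at 11707, while recipients 1 and 2 were at 20685 and 23414. Of the annotated exon bases of Ctsl, 26.9% are shared with an antisense gene, Gm47123, and the sources used here do not say whether reads were counted by strand. The other cysteine proteases overlapped between groups. Cathepsin F (Ctsf) differed by 0.11, cathepsin O (Ctso) by -0.003 and cathepsin C (Ctsc), the dipeptidyl peptidase that activates serine proteases of leukocyte granules, by -0.05. Ctsc was at 3026, 3571 and 2442 against 2839, 3065 and 3330.2, so the 3 e/e libraries spanned the controls.

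All 3 proteases of other classes had groups without overlap. Cathepsin D (Ctsd), the main aspartic protease of the lysosome, was at 31347, 32389 and 19634 against 17316, 17667 and 15958. Recipients 1 and 2 stood 1.88-fold over the control mean and recipient 3 1.16-fold (log2 difference 0.68, SE 0.18, limma adjusted p = 0.196). A same-strand gene model, Gm49369, shares 34.4% of the exon bases of Ctsd, so the counting may have split or left out reads there. The serine proteases Ctsa, which also protects neuraminidase and beta-galactosidase from degradation, and Tpp1, a tripeptidyl peptidase, differed by 0.15 and 0.14. Their e/e recipients were close together, Tpp1 at 5567, 5471 and 5441 against 5131, 5000.1 and 4825.

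Of the 7 glycosidases, which take sugars off glycoproteins, glycolipids and glycosaminoglycans, 4 had groups without overlap and an unadjusted limma p under 0.05. Beta-galactosidase (Glb1) was at 1068, 1124 and 909.9 against 744, 759.8 and 745. The controls lay within a narrow range and all e/e recipients above it, and the log2 difference was 0.46 (SE 0.095, limma adjusted p = 0.118). Hexosaminidase A (Hexa), the alpha subunit of the enzyme that degrades GM2 ganglioside, was at 5576, 5859 and 3867 against 3548, 3372 and 3528 (log2 difference 0.53, SE 0.15, limma adjusted p = 0.216). Recipients 1 and 2 were 1.64-fold and recipient 3 1.11-fold over the control mean. Tmem202, on the other strand, shares 12.8% of the exon bases of Hexa.

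Beta-glucuronidase (Gusb) and alpha-galactosidase A (Gla) differed by 0.66 and 0.57, with e/e recipient 3 at 2314 and 511 just over the highest controls, at 2098 and 488. Gla lies on the X chromosome, as do Atp6ap1, Lamp2 and Tfe3 among the members. The groups overlapped for alpha-mannosidase (Man2b1, 0.30), acid alpha-glucosidase (Gaa, 0.12), which breaks down lysosomal glycogen, and neuraminidase (Neu1, 0.05).

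**Figure D3:**
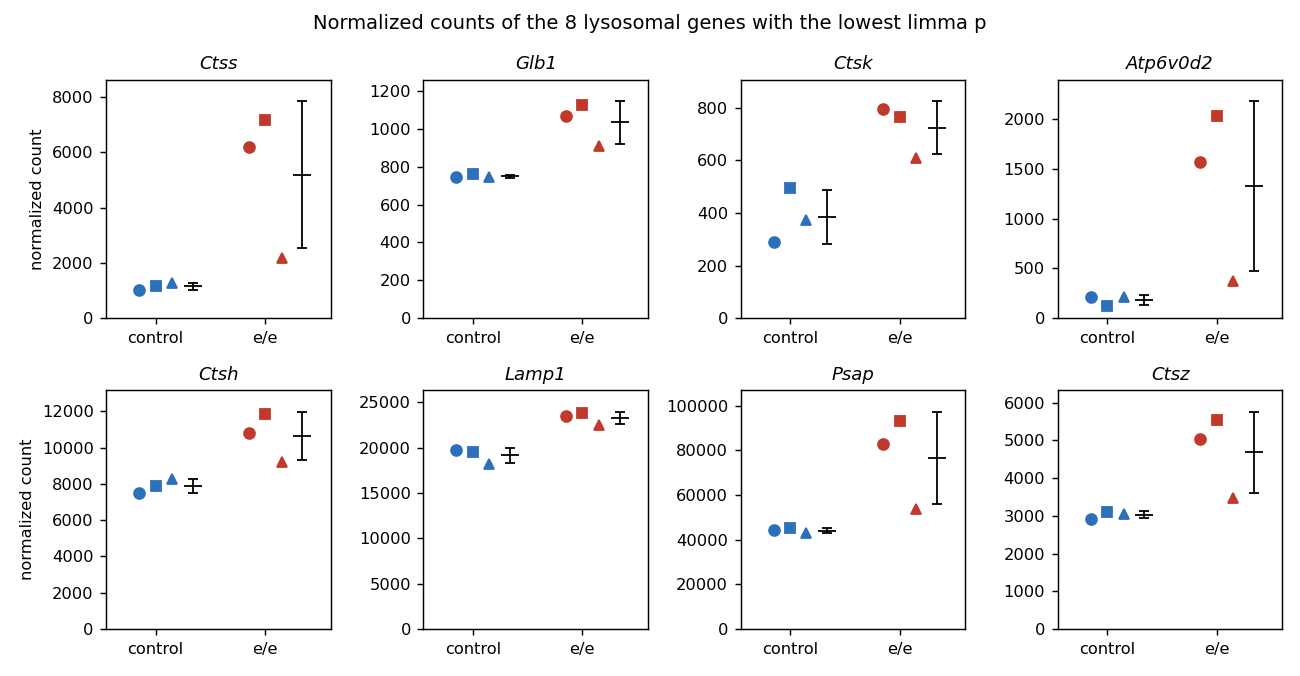
Normalized counts of the 8 lysosomal genes with the lowest limma p, one point per library (circle, square and triangle for replicates 1, 2 and 3) with the mean and SD of each group of 3 beside the points. In each gene all e/e recipients lie above all controls, and in Ctss, Atp6v0d2 and Psap e/e recipient 3 lies far below e/e recipients 1 and 2.

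Of the 8 lipid enzymes and carriers, 5 had groups without overlap. Prosaposin (Psap), the precursor of the saposins that present sphingolipids to their hydrolases, was at 82951, 93227 and 53608 against 44276, 45069 and 42918. It was the most abundant of the 43 genes, and its e/e mean of 76596 ± 20559.8 (SD, n = 3) compared with 44088 ± 1088 (SD, n = 3) in the controls. The log2 difference was 0.76 (SE 0.19, limma adjusted p = 0.174). Between e/e recipient 3 and the controls it was 0.28.

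Lysosomal acid lipase (Lipa), which hydrolyses cholesteryl esters, was at 3702, 4712 and 1975 against 1917, 2054 and 1825. Recipients 1 and 2 stood 2.18-fold over the control mean, whereas recipient 3 lay within the control range, so the groups overlapped (log2 difference 0.75, SE 0.28, limma adjusted p = 0.333). The carriers that pass cholesterol from the lumen through the membrane also overlapped, Npc2 with a log2 difference of 0.21 and Npc1 with 0.12, and in both e/e recipient 3 was under the control mean, at 0.901-fold and 0.963-fold of it.

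Progranulin (Grn), a secreted and lysosomal glycoprotein, was higher at 9665, 10071 and 8036 against 7092, 7578 and 7073, with no overlap (log2 difference 0.35, SE 0.094, limma adjusted p = 0.203). Palmitoyl-protein thioesterase (Ppt1, 0.22), acid sphingomyelinase (Smpd1, 0.17) and acid ceramidase (Asah1, 0.13) had smaller differences without overlap. In Smpd1 and Asah1 e/e recipient 3 was not the lowest e/e library.

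The phosphatases differed in their spread. Acp2, the lysosomal acid phosphatase, was at 3517, 3697 and 3313 against 3102, 3102 and 3089.8, without overlap (log2 difference 0.18, SE 0.065, limma adjusted p = 0.336). Ddb2, on the other strand, shares 12.6% of its exon bases. Acp5, the tartrate-resistant acid phosphatase of osteoclasts and some macrophages, was at 1080.4, 1485 and 218 against 190.2, 812 and 306. Its groups overlapped, with e/e recipient 3 under the control mean, and the log2 difference of 0.96 had a 95% interval of -0.78 to 2.71.

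Of the 5 membrane proteins, 2 had groups without overlap. Lamp1, one of the most abundant glycoproteins of the limiting membrane, was at 23469.6, 23774 and 22502 against 19723, 19484 and 18177. Its 3 e/e libraries were close together and all above the controls (log2 difference 0.28, SE 0.068, limma adjusted p = 0.166), and e/e recipient 3 alone stood 1.18-fold over the control mean. Lamp2, its relative that is also the receptor for chaperone-mediated autophagy, differed by 0.19, at 9258, 10447 and 9071 against 7935, 8943 and 8247. Groups overlapped for the tetraspanin Cd63 (0.18), the calcium channel Mcoln1 (0.04) and Scarb2 (-0.10), the membrane protein that carries glucocerebrosidase to lysosomes. Scarb2 spread widely within both groups, from 16766 to 22896 in e/e recipients and from 18155 to 24019.5 in controls.

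Of the 5 proton pump genes, Atp6v0d2 and Atp6ap1 had groups without overlap. Atp6v0d2, the d subunit isoform of the membrane sector known from osteoclasts and macrophages, was at 1567, 2027 and 376 against 213, 125 and 215. Recipients 1 and 2 stood 9.74-fold over the control mean and recipient 3 2.04-fold. Its log2 difference of 2.56 was the largest of the 43 (SE 0.57, limma adjusted p = 0.142).

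The isoform found in most cells, Atp6v0d1, was at 2152, 2200.3 and 2147 against 1994, 2193 and 2009, with overlap and a log2 difference of 0.07 (SE 0.067, limma adjusted p = 0.73). Per kilobase of exon, the level of Atp6v0d2 was 0.481, 0.608 and 0.116 times that of Atp6v0d1 in the e/e recipients and 0.0704, 0.0377 and 0.0708 times in the controls. The d2 isoform was thus the less abundant in every library, and its ratio to d1 was higher in each e/e recipient than in any control. Osteoclasts are cells known for Atp6v0d2, Ctsk and Acp5, and of their markers Dcstamp, Ocstamp and Oscar were near 0 in both groups, the highest value being 15.5. Car2, the carbonic anhydrase of osteoclasts and other cells, was at 15.2, 49.6 and 9.10 against 86.0, 84.3 and 289, without overlap. Tnfrsf11a was at 2208, 2076 and 2486 against 1891, 2109 and 1744, with overlap (log2 difference 0.24). Nfatc1 and Mmp9 differed by 0.10 and -0.15, both with overlap. Of 7 tested osteoclast markers 1 was higher and 1 lower at an unadjusted limma p under 0.05. The part of osteoclasts in the member differences was not tested.

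The B subunit gene of the catalytic sector, Atp6v1b2, was at 2705, 2935 and 1742 against 1692, 1821 and 1589 (log2 difference 0.50, limma adjusted p = 0.33), and e/e recipient 3 lay within the control range. The A subunit gene, Atp6v1a, was at 7730.1, 8194 and 8660.1 against 7802, 8603 and 7060.2, with a log2 difference of 0.07. The accessory subunit Atp6ap1 was at 10589.8, 10127 and 9839.9 against 8986, 9394 and 8550.0, without overlap (log2 difference 0.18, SE 0.067, limma adjusted p = 0.333).

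Of the 3 transcription factors, 2 had groups without overlap. Tfeb was at 879, 869 and 807 against 682, 759 and 765, with all e/e recipients above the controls (log2 difference 0.21, SE 0.085, limma adjusted p = 0.377). Tfe3 was at 1346, 1282 and 1323 against 1026, 1206 and 1235, likewise without overlap (log2 difference 0.19, SE 0.089, limma adjusted p = 0.445). Mitf was at 1248, 1179 and 1034 against 1168, 1277 and 1329, with overlap and a difference on the other side of 0 (-0.13, SE 0.095, limma adjusted p = 0.654). Their 95% intervals were 0.02 to 0.41, -0.01 to 0.40 and -0.35 to 0.09.

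These factors bind an E-box, the letters CACGTG, preferably with a T before it and an A after it. Promoter windows of 250 bases before to 50 after the start, from RefSeq on GRCm38.p6, were held for 37 of the 43 members. On either strand the E-box was found in 12 of the 37 members (32.4%), against 8.09% of 27025 genes with a window. With a T before it, it was in 10 members (27.0%) against 4.29% of genes, and with both the T and the A in 6 members (16.2%) against 1.12%. These searches overlap, each being a part of the one before. The stretches below, on the gene's own strand with the motif in capitals, show how it lies in members with and without a gap between the groups, and Lamp1 holds 4 copies in 73 bases.
Lamp1, chr8:13159088-13159160, plus strand: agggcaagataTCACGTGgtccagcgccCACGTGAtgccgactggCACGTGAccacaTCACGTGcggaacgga
Glb1, chr9:114401018-114401047, plus strand: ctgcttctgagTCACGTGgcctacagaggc
Ctsd, chr7:142387908-142387937, minus strand: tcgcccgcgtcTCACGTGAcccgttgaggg
Lgmn, chr12:102439124-102439153, minus strand: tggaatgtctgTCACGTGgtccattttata
Gla, chrX:134601215-134601244, minus strand: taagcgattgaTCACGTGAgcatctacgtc
Mcoln1, chr8:3500462-3500491, plus strand: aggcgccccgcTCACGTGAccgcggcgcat
Of these genes Lamp1, Glb1, Ctsd, Lgmn and Gla had e/e recipients above all controls, and Mcoln1, at 616, 560.0 and 655 against 587, 563 and 627, did not. Over all members with a window, groups did not overlap in 6 of the 10 with the T-preceded motif and in 16 of the 27 without it, and the median log2 differences were 0.22 and 0.21. A match is a description of these letters and not a bound site.

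Levels were compared between members per length, taken as the merged annotated exons of each gene. That length can exceed the one of the transcript expressed, so some genes may rank too low. Ctsd shares 34.4% of its exon bases with Gm49369, so its level may be understated. Per kilobase of exon, the control level was highest for Psap (16067 ± 396, SD, n = 3), Ctsd (7223 ± 384), Lamp1 (7151 ± 311) and Ctsb (4948 ± 524), and lowest for Atp6v0d2 (67.9 ± 18.8) and Mcoln1 (78.4 ± 4.27). The gene with the largest log2 difference was thus the one with the lowest control level, while Lamp1, with a level close to that of Ctsd, differed by 0.28 against 0.68. In 12 members the e/e mean was at least 1.5 times the control mean.

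**Figure D4:**
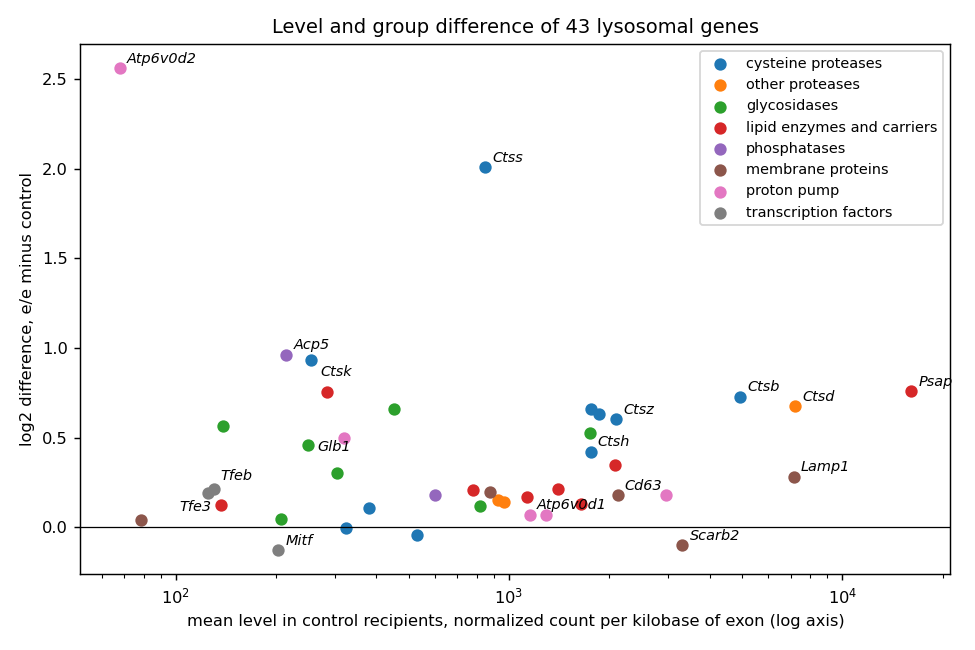
Mean control level (normalized count per kilobase of exon, log axis, 3 libraries) and log2 difference, e/e minus control, of the 43 lysosomal genes, coloured by role. Atp6v0d2 (67.9, 2.56) and Ctss stand above the others, and Psap, the most abundant gene, lies at 0.76.

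Other genes of the pathway were taken by list, and their counts at an unadjusted limma p under 0.05 stand beside the 6.36% of all genes higher and 5.79% lower. Over 201 tested genes of 8 lists, limma called 0, with 31 higher and 3 lower at an unadjusted p under 0.05, and the median log2 difference was 0.05. The difference between these lists and the members was not tested. Of 41 further lysosomal enzymes 14 were higher and 1 lower (median 0.16), led by Naglu and Galns, which degrade glycosaminoglycans (0.42 and 0.51), and Manba, a beta-mannosidase (0.40). Of 38 further membrane proteins 7 were higher and 1 lower (median 0.11), with the macrophage sialomucin Cd68 at 2.11, the peptide carrier Slc15a3 at 1.93 and the phagosomal metal transporter Slc11a1 at 1.27. Cd68 and Laptm5, both among the 7 higher ones, are also on the macrophage marker list. The median log2 difference of that list was 1.09 with these genes and 0.85 without them. Of 18 further proton pump genes 2 were higher and 0 lower (median 0.04), with the a3 subunit gene Tcirg1 at 0.59. Of 7 cathepsin inhibitors 0 were higher or lower (median 0.12).

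The remaining lists hold the machinery around the lysosome. Of 21 genes that tag and sort lysosomal enzymes 3 were higher and 0 lower (median 0.03), among them M6pr, a mannose 6-phosphate receptor, at 0.18. Of 19 tethering and fusion genes 3 were higher and 0 lower (median 0.04), with the small GTPase Rab7b at 1.15. Of 27 nutrient-sensing genes 2 were higher and 1 lower (median 0.03), near the shares over all genes. Of 30 autophagy genes 0 were higher or lower (median -0.04).

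**Figure D5:**
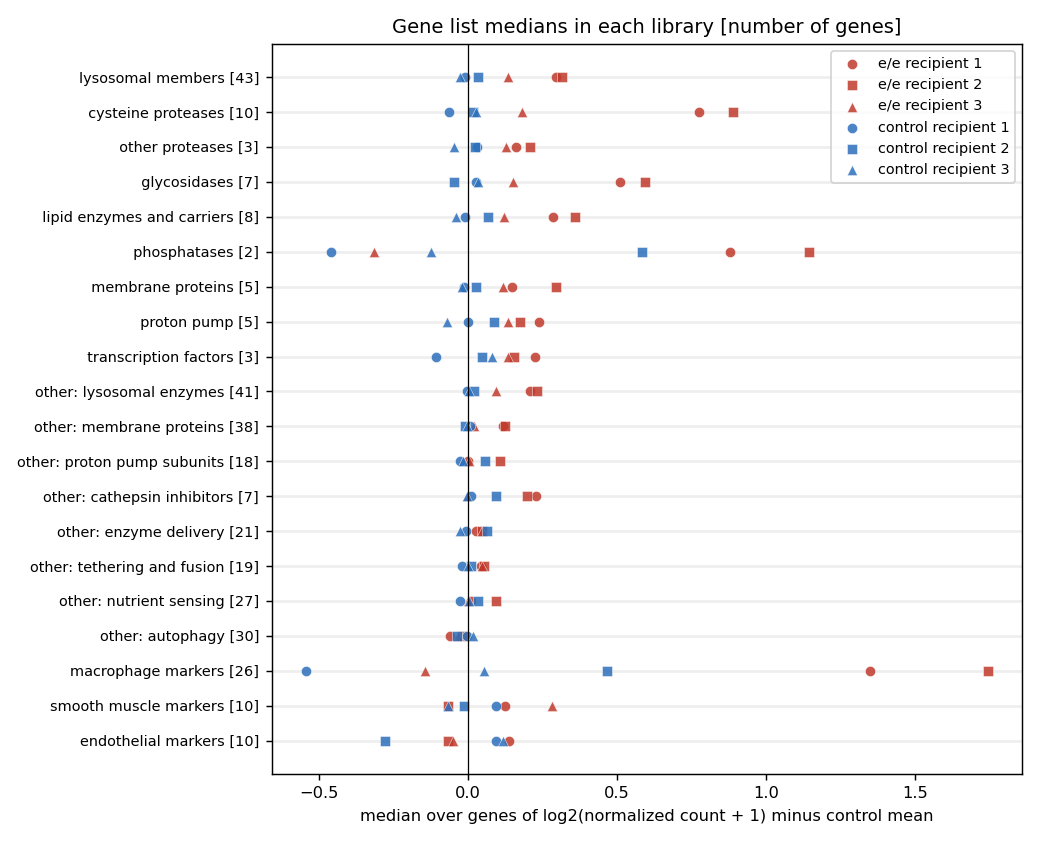
Median over each gene list of log2(normalized count + 1) minus the control mean, one point per library, for the 43 lysosomal genes, their 8 role groups, 8 lists of other lysosomal pathway genes and 3 lists of cell markers, with the number of genes in brackets. Macrophage markers lie at 1.35 and 1.75 in e/e recipients 1 and 2 and at -0.15 in e/e recipient 3.

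How many members passed depended on the test and on e/e recipient 3. DESeq2 on the recovered reads called 17 members, all higher in e/e recipients, against 2.54% of 16291 genes called higher. The authors' deposited table also lists 17 of the 43 with an adjusted p under 0.05, against 4.38% of its 15771 genes with an adjusted p. They are the same 17, but both results come from DESeq2 on counts of the same 6 libraries, so the match is no separate support. In the authors' deposited table the log2 fold changes of the 17 are negative, since its header names the groups the other way round. edgeR's quasi-likelihood test called 0 members, the smallest adjusted p being 0.0962, against 0.00484% of genes, with 24 members higher at an unadjusted p under 0.05 against 6.43% of genes. Without e/e recipient 3, limma called 16 members, all higher, against 1.46% of 20691 genes called higher. With only the libraries that showed Y-linked expression, 1 e/e recipient against 3 controls, limma called 0 members and 0 genes, and the lone e/e library was assumed to vary as the controls do. In that fit 33 members were above 0, with a median of 0.13 on the log2 scale, and 3 were higher at an unadjusted p under 0.05, against 2.57% of genes.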

How the data were processed

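The authors' deposited table held, for 6 libraries of stranded, poly(A)-selected, paired-end RNA-seq, read counts divided by a size factor (signal values), with their group means, log2 fold changes, test statistics (scores) and p-values. The submitters' processing notes name DESeq2 1.36.0 and R 4.2.0, featureCounts 2.0.1, HISAT2 2.2.1 and bcl2fastq 2.20, on GRCm38. In every library 100% of values above 0 were whole multiples of 1 step within 0.001, so whole reads were recovered. Symbols were filled by gene ID for 3304 of 3422 rows that lacked one. limma 3.58.1 (R 4.3.3, trended variance) was fitted to log2(normalized count + 1) of 20669 genes with a mean of at least 1, with Benjamini-Hochberg adjustment and a threshold of 0.05; a log2 difference on this scale understates the change of low genes. edgeR 4.0.16 and DESeq2 1.42.0 on recovered reads were alternatives. Exon lengths and overlaps came from GENCODE vM21. Both the members and the lists were chosen with earlier results of these data known. Values in each library were named for the 8 members with the lowest limma p, the most abundant member of each role, the Atp6v0d pair and the 3 transcription factors, and from each list up to 3 genes with the lowest p; those of other members were added after their values were seen.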

Additional observations from a re-analysis of the deposited data

How the results depend on the processing

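Over 16 alternatives, 665 of 688 member differences kept the side of 0 they had, and 32 of 43 members did so throughout. With only the libraries with Y-linked expression, or with that expression as a covariate, the log2 difference had the other sign for Man2b1 (-0.033), Cd63 (-0.056), Npc2 (-0.15), Acp5 (-0.725), Npc1 (-0.051) and Neu1 (-0.045), and the member median was 0.134. Ctso was at 0.002 with upper-quartile scaling and with edgeR. Leaving out 1 library turned Ctso (-0.077 to 0.068), Atp6v1a (-0.001 to 0.141), Scarb2 (-0.222 to 0.008), Mcoln1 (-0.011 to 0.102) and Ctsc (-0.176 to 0.098). The member median then ran from 0.192 to 0.295, and the number of members called by limma from 0 to 16, the 16 being without e/e recipient 3. DESeq2 called 17 members. With another scaling or filter 26 members were without overlap. Leaving out 1 library gave 26 to 33 higher and 0 to 1 lower, while 12.4 to 16.3% of all genes were then higher without overlap, and the Y-linked libraries only gave 28 higher and 4 lower, against 25.8% and 25.2% of all genes. Members higher or lower at an unadjusted limma p under 0.05 numbered 8 with the covariate, against 26 without it. Higher with the covariate were 6 members (14.0%), against 3.20% of all genes. The group difference in that fit rests on e/e recipient 3 against the controls. Over all genes, limma called 91 with no filter, 1 with a filter at a mean of 10, 0 in both fits on Y-linked expression and 0 to 434 when 1 library was left out; edgeR called 1 and DESeq2 713. DESeq2 called 5 further enzymes, 3 further membrane proteins, 1 further pump gene and 1 fusion gene, and leaving out 1 library gave 0 to 8, 0 to 4, 0 to 1 and 0 to 1 by limma. With the Y-linked libraries only, the list medians were 0.095 for further enzymes, 0.011 for further membrane proteins (0.021 with the covariate) and 0.002 for cathepsin inhibitors. Leaving out 1 library gave medians of 0.011 to 0.11 for further pump genes, 0.05 to 0.219 for cathepsin inhibitors, -0.001 to 0.069 for enzyme delivery and 0.013 to 0.052 for fusion. Apart from these fits on fewer libraries, the cause of the changes was not tested. No paired analysis was possible because the libraries carry names and no replicate numbers shared between the groups. The lowest member mean was 555 normalized counts, and each group had 3 libraries.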
